A study of Homo sapiens with 14 samples.

Results

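Broad peaks are the subject here: GATA1 ChIP-seq peaks at least 1000 bp wide that share no base with any peak called in the other condition. The series holds 1 peak list for each of 2 conditions, and members were chosen by width and by lack of overlap on chromosomes 1 to 22 and X, leaving out 37 to 41.5 Mb of chromosome 19. By this rule 2173 of 121464 peaks were members in the list labelled shControl and 874 of 249675 in the list labelled shHDAC5, together 3047 of 371139. Width, fold enrichment, p and q come from the same calls that chose the members, so they are given as descriptions without a test.

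GATA1 was immunoprecipitated from PANC-1, a line established from a human pancreatic carcinoma, 3 days into the experiment as labelled. The control condition is wild type with a control hairpin (shControl), and the other carries a short hairpin against HDAC5 (shHDAC5), with 2 immunoprecipitations and 2 inputs each. RNA was sequenced in 6 libraries labelled BxPC-3, a different pancreatic cancer line, 3 with shControl and 3 with shHDAC5, also at day 3. The study's title links loss of HDAC5, GATA1 and cytosolic phospholipase A2 (PLA2G4A), the enzyme that frees arachidonic acid from membranes.

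Labels and contents of the files did not match in several places, and every direction below is as labelled. Each of the 121464 peaks in the shControl-labelled list bears a name with the tag GATA1-SAHA-IP, and each of the 249675 in the shHDAC5-labelled list bears GATA1-NC-IP, so which condition each list represents is not established here. HDAC5 RNA was 95.4, 91.7 and 97.7 CPM (counts scaled to library size) in the libraries labelled shControl and 162, 161 and 169 CPM in those labelled as its knockdown, higher in each of the 3 latter (log2 fold change 0.79, Benjamini-Hochberg adjusted p = 3.95e-40 by the quasi-likelihood test of edgeR). The 9 ductal epithelial markers summed to between 1743 and 1774 CPM in the libraries labelled shControl and between 1419 and 1482 CPM in the others. KRT8 (717 to 1010 CPM), KRT18 (404 to 327), KRT7 (371 to 25.3), MUC1 (166 to 11.3), ELF3 (91.4 to 63.4) and CLDN4 (8.43 to 14.5) were present, while KRT19, EPCAM and CDH1 were below 3 CPM in both groups. SMAD4, which BxPC-3 is known to have lost, stood at 49.6 ± 2.59 and 46.8 ± 0.789 CPM (SD, n = 3). CDKN2A, also known as deleted in BxPC-3, was at 149.5 ± 4.78 and 13.7 ± 0.648 CPM (SD, n = 3). The 6 fibroblast markers summed to between 121 and 131 CPM in the libraries labelled shControl and between 85.7 and 90.9 CPM in the others, most of it COL1A1, and COL1A2 and LUM were at or near 0. The 4 leukocyte markers summed to between 0.14 and 2.63 CPM, and the 4 erythroid ones to between 0.0699 and 7.21 CPM. Total counts ran from 15179758 to 17854340 per library. Whether the 3 libraries of a group are separate cultures is not labelled; p-values therefore reflect the spread between libraries, possibly a technical one.

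GATA1 is a zinc-finger transcription factor best known for directing red blood cell and platelet development, where it binds short GATA sequences in promoters and enhancers. A binding site of a sequence-specific factor usually gives a narrow ChIP-seq peak, while wide peaks are more typical of histone marks, of polymerase, or of clusters of sites. HDAC5 is a class IIa histone deacetylase, which acts within corepressor complexes and binds MEF2 factors.

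Some broad peaks held annotated promoters, and the sequences of a few are shown; they do not stand for the other broad peaks, whose own sequence was not read. RefSeq promoter windows of 300 bases (250 before and 50 after the start of transcription, GRCh38.p14, 5′ to 3′ on the gene's strand) were placed in the peaks by position. In the shControl-labelled list 146 windows of 130 coding genes lay wholly inside a broad peak, and the shHDAC5-labelled list held 3 windows of 3 genes. The 3 shown first are from the former list, with each CG dinucleotide in capitals.
SIGIRR, chr11:417348-417647, minus strand: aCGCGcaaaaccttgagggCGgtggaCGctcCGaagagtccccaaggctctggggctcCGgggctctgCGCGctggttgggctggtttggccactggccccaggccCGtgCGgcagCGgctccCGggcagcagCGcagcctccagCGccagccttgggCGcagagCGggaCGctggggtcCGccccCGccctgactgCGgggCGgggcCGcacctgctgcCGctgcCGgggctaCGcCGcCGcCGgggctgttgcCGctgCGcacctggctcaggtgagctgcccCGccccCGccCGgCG
IRX4, chr5:1886896-1887195, minus strand: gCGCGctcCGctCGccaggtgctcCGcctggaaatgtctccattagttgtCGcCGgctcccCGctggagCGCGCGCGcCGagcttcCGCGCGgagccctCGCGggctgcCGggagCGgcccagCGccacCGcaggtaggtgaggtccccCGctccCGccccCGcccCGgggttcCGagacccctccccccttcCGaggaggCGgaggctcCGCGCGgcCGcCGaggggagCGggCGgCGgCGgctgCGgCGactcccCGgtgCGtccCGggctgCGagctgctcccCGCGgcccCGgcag
SLIT2, chr4:20251655-20251954, plus strand: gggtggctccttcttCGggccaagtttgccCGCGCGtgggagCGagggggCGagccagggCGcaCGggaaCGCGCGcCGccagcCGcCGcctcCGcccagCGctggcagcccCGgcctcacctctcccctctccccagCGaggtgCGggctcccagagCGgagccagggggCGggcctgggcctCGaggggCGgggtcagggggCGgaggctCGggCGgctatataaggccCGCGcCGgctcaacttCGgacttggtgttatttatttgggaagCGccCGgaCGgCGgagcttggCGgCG

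These windows are dense in CG dinucleotides, with 34 in SIGIRR (an inhibitor of interleukin-1 and Toll-like receptor signalling), 47 in IRX4 (a homeobox factor of heart ventricles) and 36 in SLIT2 (the secreted ligand of ROBO receptors). Over the 146 windows the median was 31.5 CG dinucleotides and 70.8% G plus C, against 21 and 62.3% over all 21978 windows of coding genes. The window of NBPF1, chosen by the same rule but not shown, held 26 CG dinucleotides and 67.7% G plus C, below the medians of the 146. GATA hexamers (AGATAA, the same with G as its last base, and each of these with T as its first base, searched on both strands) were found in 18 of the 146 windows (12.3%) and in 19.99% of all windows of coding genes. None was present in the SIGIRR, IRX4 or SLIT2 window. The broad peaks around these windows had a fold of 6.32, 4.64 and 3.79 and a −log10 q of 5.01, 1.80 and 0.733. The SLIT2 peak therefore did not have a q of at most 0.05.

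All 3 windows of the shHDAC5-labelled list are shown next, with any GATA hexamer in capitals. PARP14 was named by the rule for genes, while BANP and MAPK9 were added after their values were seen.
PARP14, chr3:122680589-122680888, plus strand: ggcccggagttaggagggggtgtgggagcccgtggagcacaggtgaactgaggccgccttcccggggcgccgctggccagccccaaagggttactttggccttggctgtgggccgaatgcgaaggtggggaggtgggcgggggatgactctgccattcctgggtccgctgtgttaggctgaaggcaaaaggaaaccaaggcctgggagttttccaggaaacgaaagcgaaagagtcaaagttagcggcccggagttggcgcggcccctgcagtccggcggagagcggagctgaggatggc
BANP, chr16:87959621-87959920, plus strand: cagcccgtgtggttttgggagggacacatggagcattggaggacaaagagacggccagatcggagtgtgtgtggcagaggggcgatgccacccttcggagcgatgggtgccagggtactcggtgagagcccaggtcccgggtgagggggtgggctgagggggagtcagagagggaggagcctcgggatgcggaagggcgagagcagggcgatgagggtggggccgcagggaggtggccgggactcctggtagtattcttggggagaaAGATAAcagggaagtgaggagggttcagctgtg
MAPK9, chr5:180280559-180280858, minus strand: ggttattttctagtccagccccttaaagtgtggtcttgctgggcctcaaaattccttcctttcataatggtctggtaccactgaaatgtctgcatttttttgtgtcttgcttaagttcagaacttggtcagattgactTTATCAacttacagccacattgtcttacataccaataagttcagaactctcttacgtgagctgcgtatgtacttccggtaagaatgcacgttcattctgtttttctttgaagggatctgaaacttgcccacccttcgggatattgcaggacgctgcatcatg

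PARP14 encodes a mono-ADP-ribosyltransferase of interferon responses, BANP a protein that binds unmethylated CG-rich promoters, and MAPK9 the stress kinase JNK2. The BANP window held AGATAA and 14 CG dinucleotides, and the PARP14 window held no hexamer and 19. The MAPK9 window held TTATCA, which is a GATA hexamer on the other strand, and 6 CG dinucleotides. The broad peaks around the PARP14, BANP and MAPK9 windows had a fold of 3.85, 2.57 and 3.18 and a −log10 q of 0.725, 0 and 0.314. None of these peaks had a q of at most 0.05. With 3 windows no share can be read from them. A match is a run of letters and not a shown binding site.

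Broad peaks made up 1.81% of the 120087 peaks eligible by position in the shControl-labelled list and covered 5.68% of their bases. Within the shHDAC5-labelled list they made up 0.352% of 248598 eligible peaks and 1.10% of the bases. Before the overlap rule was applied, 2586 and 1008 eligible peaks reached 1000 bp. Of these, 413 (15.97%) and 134 (13.3%) overlapped the other list and were not members, against 11.5% and 5.47% of all eligible peaks.

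Members of the shControl-labelled list were wider and more enriched than those of the other list. Their widths ran from 1000 to 3881 bp with a median of 1180, and 383 reached 1500 bp, 78 reached 2000 and 9 reached 3000. For the shHDAC5-labelled list the median was 1097 bp and the maximum 3302 bp, with 29, 2 and 1 members at these widths. The authors' fold enrichment over the background of the peak caller had a median of 3.65 (1.78 to 8.29) in the former, where all eligible peaks had 2.73. In the latter it was 2.57 (1.65 to 5.12), against 2.33. A q of at most 0.05 was given to 731 members (33.6%) against 4.85% of all eligible peaks in the former list, and to 26 members (2.98%) against 0.408% in the latter. The −log10 q was 0, a q of 1, for 239 members (11%) and 476 members (54.5%), against 60.3% and 78.7% of all eligible peaks. Fold values repeated across peaks: 3.51 was listed for 173 members (7.96%) of the shControl-labelled list and 2.57 for 174 (19.9%) of the other.

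**Figure D1:**
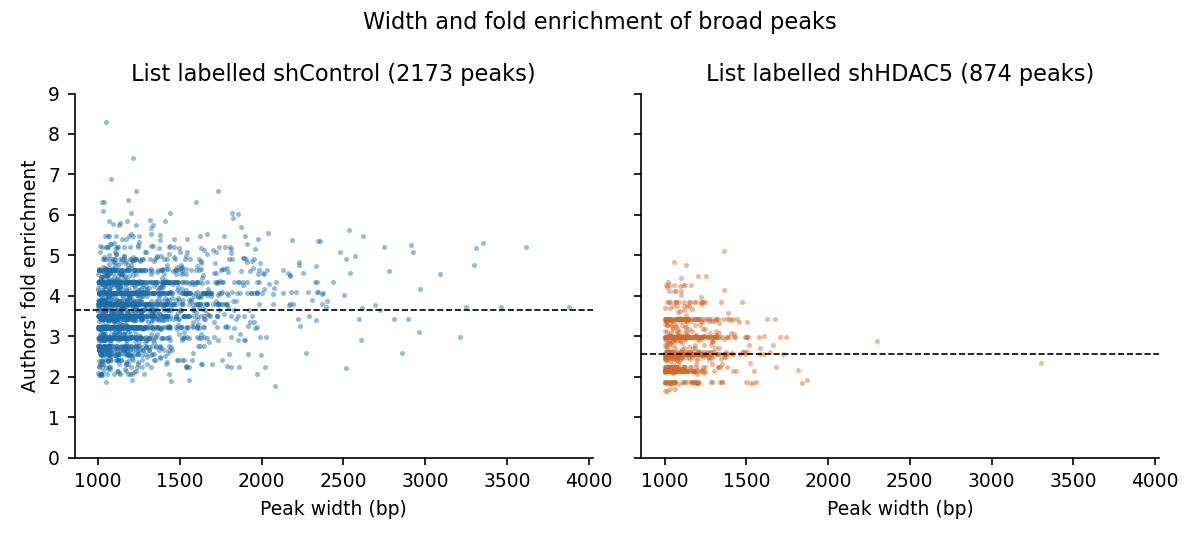
Width in bp (x axis) and the authors' fold enrichment (y axis) of each broad peak in the 2 lists; the dashed line is the median fold, 3.65 and 2.57. Points lie in horizontal bands because many peaks share a fold value, and the shHDAC5-labelled list has 2 points at 2000 bp or more.

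The 1000 bp limit cuts through a continuous range of widths. Members less than 50 bp above it numbered 401 and 273 in the shControl- and shHDAC5-labelled lists, and non-overlapping peaks up to 50 bp below it numbered 513 and 362. Among shControl-labelled peaks, the 3 nearest members inside the limit, all of 1000 bp, had fold values of 4.36, 4.21 and 4.14, and the 3 nearest outside it, 1 bp narrower, had 5.65, 4.36 and 4.31. In the other list these were 3.42, 2.99 and 2.57 inside and 3.603, 3.35 and 2.99 outside.

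Broad peaks of the shControl-labelled list lay in genes and near chromosome ends more often than the list as a whole. The summit was inside a coding gene for 1643 of 2173 members (75.6%, 95% exact binomial interval 73.8 to 77.4), against 58.7% of all eligible peaks. It lay within 1 kb of a coding gene's start or end coordinate for 17.3% (15.7 to 18.96) against 11.4%, and within 1 kb of a RefSeq start for 12.4% (11.1 to 13.9) against 8.21%, where chromosome 8 was not used. Within 5 Mb of the chromosome's outermost annotated feature lay 1056 members (48.6%, 46.5 to 50.7), against 23.9% of all eligible peaks. A member had a median of 16 coding genes within 500 kb, against 10, and only 5.52% had no coding gene within 100 kb, against 13.7%.

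Those of the shHDAC5-labelled list were placed much like that list as a whole. The summit was inside a coding gene for 394 of 874 members (45.1%, 41.8 to 48.5) against 44.0% of all eligible peaks, within 1 kb of a gene end for 19 members (2.17%, 1.31 to 3.37) against 2.97%, and within 5 Mb of the chromosome's outermost feature for 59 (6.75%, 5.18 to 8.62) against 7.30%. The median was 5 coding genes within 500 kb in both. These intervals cover counting error only, and they take neighbouring peaks as independent. With 1 list a condition, no difference between the lists can be tested.

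**Figure D2:**
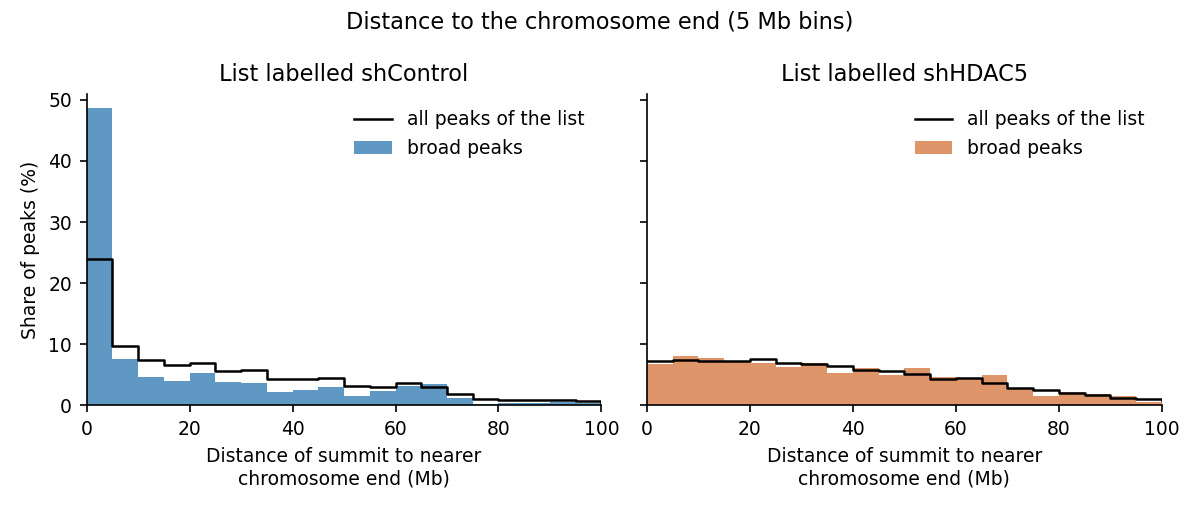
Share of peaks in % (y axis) by distance in Mb from the summit to the nearer outermost annotated feature of the chromosome (x axis, 5 Mb bins), for broad peaks (bars) and all eligible peaks (line) of each list. The first bin holds 48.6% of broad peaks against 23.9% of all in the shControl-labelled list, and 6.75% against 7.30% in the other.

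Position changed with width in the shControl-labelled list, below the 1000 bp limit as well as above it. Among non-overlapping peaks from 250 to under 500 bp, 57.2% had a summit in a coding gene and 22.1% lay within 5 Mb of a chromosome end, and in the classes between these shares grew at each step to 83.3% and 64.1% of the 78 members of 2000 bp or more. The share within 1 kb of a RefSeq start took another course, from 6.99% in that narrowest class to 13.4% from 1000 to under 1250 bp and 6.41% at 2000 bp or more. Among shHDAC5-labelled peaks the share near a chromosome end was 6.60%, 7.201% and 3.67% from 250, 1000 and 1250 bp up to the next class. The widest classes of that list hold 27 and 2 members, and their shares are imprecise.

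**Figure D3:**
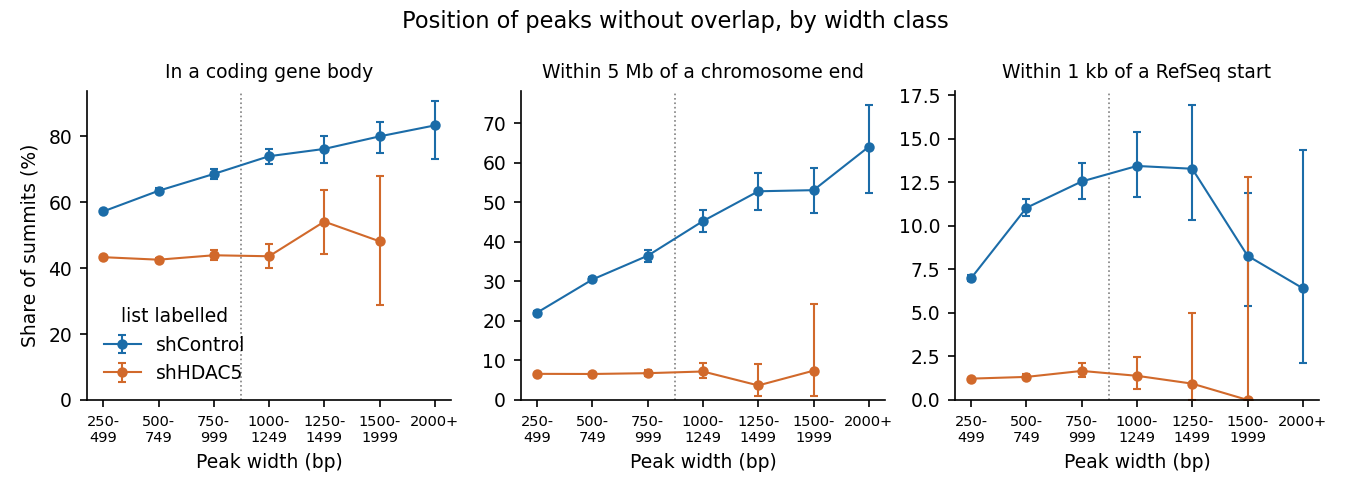
Share of summits in % (y axis) by peak width class in bp (x axis) among peaks without overlap, for coding gene bodies, 5 Mb chromosome ends and 1 kb around RefSeq starts; bars are 95% exact binomial intervals, the dotted line marks 1000 bp, and classes under 20 peaks are left out. In the shControl-labelled list the first 2 shares climb to 83.3% and 64.1%, while the share near starts is 6.41% in the widest class.

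Chromosome 11 carried the most broad peaks of the shControl-labelled list, with 373 (17.2% of members against 7.31% of all eligible peaks), or 42.5 per 1000 peaks. Its first 4 Mb alone held 212 members (9.76%) against 1.27% of all peaks. The shHDAC5-labelled list had 0 members there, close to the 0.13% of all its eligible peaks. Without that segment, 43.0% of members of the shControl-labelled list still lay within 5 Mb of a chromosome end. Other dense windows of 2 Mb lay at 2 to 4 Mb of chromosome 1 (70 members), 0 to 2 Mb of chromosome 16 (57), 62 to 64 Mb of chromosome 20 (52) and 0 to 2 Mb of chromosome 7 (45). Chromosomes 4 and 13, which are poor in genes, held 17 and 9 members (0.782% and 0.414%, against 2.92% and 1.46% of all eligible peaks). Chromosome 18, also poor in genes, went the other way with 61 members (2.81% against 1.95%). The chromosomes with most members of the shHDAC5-labelled list were 1 (110), 5 (96) and 3 (82), and chromosomes 14 and 22 held 3 and 2.

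**Figure D4:**
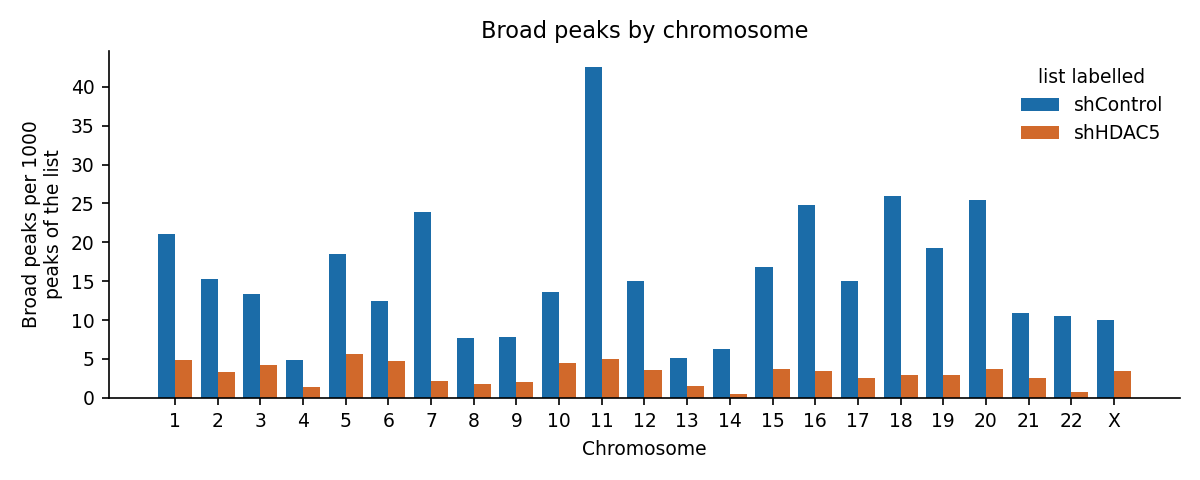
Broad peaks per 1000 eligible peaks of the list (y axis) on chromosomes 1 to 22 and X (x axis). The bar of chromosome 11 reaches 42.5 in the shControl-labelled list and 4.97 in the other.

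Broad peaks of the shControl-labelled list often stood in rows, within a gene or across several. With gaps of at most 10 kb, 780 of its members (35.9%) fell into 269 runs of 2 or more. In the shHDAC5-labelled list 19 members (2.17%) fell into 9 runs. The lists hold 2173 and 874 members, and the part of these numbers in the 2 shares was not tested. The longest run had 15 members over 82410 bp of chromosome 11 (chr11:819460-901869) across PNPLA2 (adipose triglyceride lipase), CRACR2B, POLR2L (an RNA polymerase subunit), TSPAN4 (a tetraspanin) and CHID1. A run of 12 covered 35.4% of chr11:1160026-1209379 at MUC5AC, a gel-forming mucin of airway and stomach, with fold values from 2.59 to 5.34. Runs of 12 at LSP1, PRR33 and SYT8 and of 11 at BRSK2 and MOB2 lay on the same chromosome, and a run of 10 lay at NFATC1 on chromosome 18.

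Seen by gene, 1270 coding genes (6.40% of 19854) touched a member of the shControl-labelled list, 250 of them at least 2 members and 38 at least 5. KCNQ1, the potassium channel of heart muscle and epithelia in the imprinted domain of chromosome 11, touched 20 members that together covered 25976 bp, 14 of them with q of at most 0.05. NFATC1 (a calcineurin-regulated transcription factor) touched 15, BRSK2 (a kinase of neuronal polarity) and PRDM16 (a zinc-finger regulator of brown fat) 14 each, MEGF6 11, MUC5AC 11 and MAD1L1 (a spindle checkpoint protein) 10. The gel-forming mucins beside MUC5AC were also covered, with 8 members at MUC2, 6 at MUC5B and 4 at MUC6; these neighbours were added after their values were seen.

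For the shHDAC5-labelled list, 372 coding genes (1.87%) touched a member, 31 of them at least 2 members and 4 of them 3. These 4 were ITGA9 (an integrin subunit), KAZN (a desmosome-associated protein), SDK1 (a synaptic adhesion protein) and ZNF385D. The touched genes were long, with a median of 173 kb, against 28.9 kb in the shControl-labelled list and 24.3 kb over all coding genes. Both lists touched 34 genes, which is 2.68% of the genes of the shControl-labelled list and 9.14% of the other.

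The widest and the most enriched peaks were in different places. For the shControl-labelled list the widest lay in AP2A2, an adaptor subunit of clathrin-coated pits (chr11:991739-995619, 3881 bp, fold 3.72), followed by 3618 bp at TBL3 and NOXO1 (chr16:1977678-1981295, fold 5.20) and 3463 bp at ANO9 (chr11:418006-421468, fold 3.73). The others of the 8 widest lay at ZNF316, TPCN2, CD81 and, with 2 peaks, CHID1. The highest fold, 8.29, belonged to a peak of 1045 bp on chromosome 16 (chr16:16358379-16359423) outside coding genes, 8116 bp from NPIPA6, a member of a multicopy family of segmental duplications. A neighbour 12479 bp from NPIPA7 was next with 7.41 (chr16:16366404-16367618). PDXDC1, TTC34, SHISA7, SIGIRR and UCKL1 touched 5 others of the 8 highest, with fold values from 6.32 to 6.60. Reads from near-identical copies can be assigned to either copy, and the authors' treatment of such reads is not stated.

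The widest peak of the shHDAC5-labelled list spanned 3302 bp at chr16:46398326-46401627, with no coding gene nearer than SHCBP1 at 179091 bp. With neighbours of 1413 and 1871 bp it formed the only run of 3, where −log10 p was 74.5, 63.4 and 40.7 at fold values of 2.60, 2.34 and 1.93. Just 6 of 874 members reached a −log10 p of 10, 4 of them on chromosome 16, and all 6 had a fold of 3.03 or less. Besides that run they lay at chr16:34582787-34583817, chr2:90397485-90398834 and chr3:91549181-91550493. Whether reads of repeated sequence gave these −log10 p values was not tested, and such values alone do not mark GATA1 sites. By fold, the highest member lay at the end of PLAAT3 (chr11:63573746-63575106, 1361 bp, fold 5.12, −log10 q 2.93), a phospholipase A and acyltransferase of fat tissue and lens. DLG2, a synaptic scaffold, held the next (chr11:85352602-85353656, fold 4.83). Of the 26 members with q of at most 0.05, 7 had a summit in a coding gene (26.9%, against 44.0% of all eligible peaks of that list). Over 100 kb from any coding gene lay 11 of the 26, against 26.0% of all eligible peaks. Within 5 Mb of a chromosome end lay 0, against 7.30%. With 26 members these shares are imprecise.

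Peaks became members by width and overlap, without use of RNA values. The members and the gene lists were nevertheless chosen with earlier results of these data known. The RNA is also from a line labelled BxPC-3 and not PANC-1. Of 13608 coding genes tested, 5995 (44.1%) were higher and 6043 (44.4%) lower in the libraries labelled shHDAC5, 88.5% in either direction, with a Benjamini-Hochberg adjusted p below 0.05 by the quasi-likelihood test of edgeR. A count of calls among touched genes is read beside these shares. Bulk RNA cannot tell a change in the mix of cells from a change in RNA per cell.

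Genes touched in the shControl-labelled list followed the background. Of 1270, 992 passed the filter on low counts; 451 (45.5%) were higher, 436 (44.0%) lower and 105 did not pass the test. Their median log2 fold change was 0.02 against 0.00 over all coding genes tested. Genes with an end within 1 kb of a member summit gave 128 higher and 132 lower of 294 tested, and genes touching 3 or more members 46 and 37 of 95.

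Genes touched in the shHDAC5-labelled list had a larger share called higher than the background. Of 372, 274 passed the filter; 144 (52.6%) were higher, 107 (39.1%) lower and 23 did not pass the test, with a median log2 fold change of 0.24. Their level was low: of the 366 with a row in the RNA file, tested or not, 53.6% were under 1 RPKM in the libraries labelled shControl, against 44.2% of all 18972 coding genes with a row. Over the 274 tested, the median was 2.33 RPKM, against 5.07 over all 13608 tested. Their length and level differ from those of other genes, and the part of these in the share called higher was not tested. Genes with an end within 1 kb of a member gave 6 higher and 6 lower of 13.

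Among genes carrying many broad peaks of the shControl-labelled list, directions were mixed. KCNQ1 was at 95.7, 86.8 and 88.3 CPM in the libraries labelled shControl and at 23.2, 23.9 and 20.5 CPM in those labelled shHDAC5. All 3 of the latter lay below all 3 of the former, with a log2 fold change of −2.0 (SE 0.0554, adjusted p = 1.60e-59). MEGF6 went from 377 ± 11.8 to 186 ± 3.33 CPM (SD, n = 3), PRDM16 from 6.65 ± 0.507 to 2.203 ± 0.178, and NFATC1 from 11.6 ± 0.545 to 9.74 ± 0.416, all called lower. CHID1 (32.2 ± 0.56 to 47.3 ± 1.93 CPM), FBRSL1 (57.5 ± 2.67 to 107 ± 3.04 CPM) and MAD1L1 (1.51 ± 0.142 to 3.78 ± 0.828 CPM) were called higher. BRSK2, with 14 members, was at 14.4, 14.1 and 14.4 against 15.6, 12.1 and 14.2 CPM; the groups overlapped and the test was not passed (log2 fold change −0.03, adjusted p = 0.748). LSP1 had 0 counts in the shControl group and 8 in the other and was not tested.

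The mucin genes were low in both groups. MUC5AC had 25 counts over the 3 libraries labelled shControl and 136 over the others, at 0.708, 0.21 and 0.664 against 3.49, 2.63 and 1.73 CPM, and was called higher with a log2 fold change of 2.26 (SE 0.336, adjusted p = 1.67e-09). MUC2 (0.242 ± 0.166 to 1.51 ± 0.436 CPM) and MUC6 (1.11 ± 0.396 to 7.65 ± 0.828 CPM) were higher too. MUC5B was at 8.56 ± 0.214 and 8.75 ± 0.523 CPM and did not pass the test (adjusted p = 0.808).

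Genes with a broad peak of the shControl-labelled list at an end were called higher (43.5%) and lower (44.9%) near the background of 44.1% and 44.4%. Most of those described next were picked for a small adjusted p, in both directions. SLIT2, whose promoter is printed above, was at 0.772, 0.349 and 0.362 CPM in the libraries labelled shControl and at 66.6, 66.4 and 66.0 CPM in the others. Its log2 fold change was 7.04 (SE 0.129, adjusted p = 1.42e-76), while the peak at its promoter had a −log10 q of 0.733. COL6A2, a chain of type VI collagen, went from 1.28 ± 0.395 to 109 ± 5.12 CPM, MAPK8IP1, a scaffold of JNK signalling, from 1.18 ± 0.212 to 49.0 ± 1.94, and BAIAP2, an actin regulator, from 23.02 ± 1.86 to 135 ± 3.81. On the other side PTDSS2, a phosphatidylserine synthase, was at 477, 499 and 502 CPM against 71.9, 71.4 and 68.9 CPM (log2 fold change −2.8, SE 0.0322, adjusted p = 1.97e-96). RCC2, a mitotic regulator, went from 289 ± 6.41 to 42.5 ± 2.76 CPM, and ANP32B, a histone chaperone, from 251 ± 2.67 to 14.4 ± 0.71. They were named for being among the 6 lowest adjusted p in their direction among genes with such a peak. SIGIRR and ANO9, which share a peak-rich stretch of chromosome 11, went from 16.3 ± 0.437 to 19.8 ± 1.03 and from 35.8 ± 0.495 to 12.2 ± 1.52 CPM.

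For the shHDAC5-labelled list, PARP14, with its promoter inside a broad peak, was at 40.8, 38.8 and 38.6 CPM in the libraries labelled shControl and at 5.97, 7.1 and 5.87 CPM in the others. It was lower in each of the 3 latter, with a log2 fold change of −2.64 (SE 0.0893, adjusted p = 1.96e-51). The other 2 genes with a promoter window inside a broad peak moved less: MAPK9 went from 113 ± 4.65 to 83.1 ± 1.66 CPM and BANP from 14.7 ± 1.19 to 18.4 ± 0.519 CPM, both past the test. CADM1, a cell adhesion molecule, was lower (43.7 ± 0.688 to 19.5 ± 1.54 CPM), and SNX11, a sorting nexin, higher (13.2 ± 0.705 to 32.2 ± 1.9 CPM). Of the 4 genes with 3 members, KAZN went from 8.17, 7.97 and 8.27 to 16.3, 17.8 and 16.3 CPM and SDK1 from 13.2, 11.3 and 12.6 to 21.8, 24.0 and 20.1 CPM, both higher without overlap. ZNF385D had 0 counts in the libraries labelled shControl and 54 in the others, and ITGA9 had 3 and 8 counts and was not tested.

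**Figure D5:**
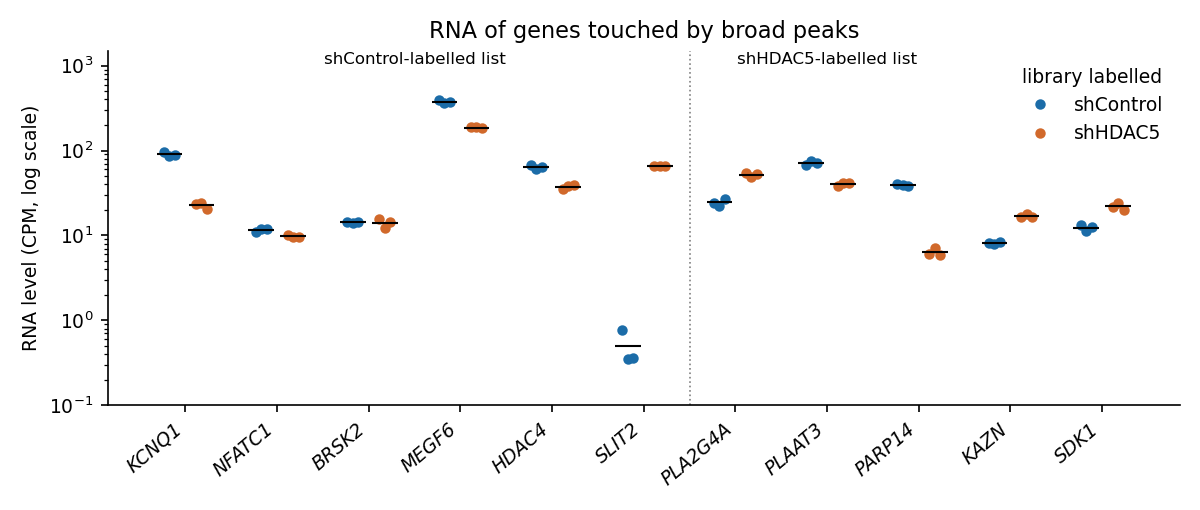
RNA level in CPM (y axis, log scale) of 11 genes touched by broad peaks, 1 point a library and a line at each group mean, with genes of the shControl-labelled list to the left of the dotted line. The groups overlap at BRSK2 alone among these genes, and SLIT2 has the widest gap.

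Phospholipase A2 and eicosanoid genes, the pathway of the study's title, were touched at 3 of 44 (6.82%) in each list, against 6.40% of all coding genes in the shControl-labelled list and 1.87% in the other. PLA2G4A (chr1:186828949-186988981) held 26 peaks of the shHDAC5-labelled list, 2 of them broad, and 0 peaks of the shControl-labelled list. The shHDAC5-labelled list holds 249675 peaks in all and the other 121464. How often a gene of this length holds many peaks of 1 list and 0 of the other was not counted. The first broad peak there, chr1:186829720-186830781, spans 1062 bp with its summit 1209 bp from the gene's start and has a fold of 1.88, a −log10 p of 1.56 and a q of 1. The second, chr1:186914648-186915792, spans 1145 bp inside the gene, with a fold of 2.57, a −log10 p of 2.59 and a q of 1. PLA2G4A RNA was 24.3, 22.3 and 27.2 CPM in the libraries labelled shControl and 54.2, 48.3 and 52.6 CPM in those labelled shHDAC5, higher in each of the 3 latter (log2 fold change 1.06, SE 0.0632, adjusted p = 7.01e-31). PLAAT3 went the other way, from 71.5 ± 3.75 to 40.4 ± 2.09 CPM, and PTGER3, a prostaglandin E2 receptor with a peak of 1743 bp, had 3 and 26 counts and was not tested. In the shControl-labelled list a shared peak of 1047 bp lay where FADS1 and FADS2 meet, the desaturases that make arachidonic acid. FADS1 went from 473 ± 8.14 to 170.4 ± 3.199 CPM and FADS2 from 36.0 ± 2.56 to 25.9 ± 0.852, both lower. PLA2G4B was at 0.88 ± 0.52 and 1.32 ± 0.256 CPM and did not pass the test.

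Histone deacetylases and their class IIa partners were touched at 4 of 17 in the shControl-labelled list (23.5% against 6.40% of all coding genes) and at 0 of 17 in the other. HDAC4, a class IIa relative of HDAC5, touched 5 members of 1002 to 1254 bp with fold values from 2.74 to 4.04, and was at 68.0, 61.2 and 64.9 CPM against 34.9, 37.9 and 38.9 CPM (log2 fold change −0.80, SE 0.0534, adjusted p = 4.47e-27). HDAC10 went from 3.10 ± 0.702 to 1.72 ± 0.435 CPM and was also lower, while MEF2B was not tested. HDAC5 itself touched no member of either list. GATA factors and partners were touched at GATA5 and ZFPM1 (a GATA cofactor) in the shControl-labelled list and at RUNX1 and ZFPM2 in the other, 2 of 18 (11.1%) each, against 6.40% and 1.87% of all coding genes. All 4 were called higher, as were 44.1% of all coding genes tested. GATA5 had 23 counts in the libraries labelled shControl and 61 in the others, and its groups overlapped. The GATA5 member spans 2089 bp (chr20:62469339-62471427). GATA1 was at 0.344 ± 0.093 and 2.85 ± 0.438 CPM and touched none.

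Developmental regulators were touched above the background share in the shControl-labelled list, and long genes of fragile sites in the other. Of 94 homeobox and paired box genes, 17 (18.1% against 6.40%) touched 18 members of the shControl-labelled list and 0 touched the other. With 1.87% of all coding genes touched in that other list, 0 of 94 lies close to the background. The 17 include IRX1, IRX2, IRX4, HOXA3, HOXA10, PAX2, PAX5, PAX6 and NKX2-5. In RNA 5 were tested, with HOXA10 (18.8 ± 1.87 to 1.07 ± 0.146 CPM) and PAX6 (10.9 ± 0.794 to 2.96 ± 0.415 CPM) among 3 lower, and DLX4 (24.6 ± 0.187 to 44.4 ± 1.16 CPM) higher. Clustered protocadherins are neuronal adhesion genes, with shared 3′ exons in the alpha and gamma clusters but not the beta one. They were touched at 37 of 53 (69.8% against 6.40%), but by 4 members in all, of which a peak at chr5:141491675-141492765 counts for 22 genes and a peak at chr5:140883462-140884568 for 13. Of these genes 7 were tested in RNA, 0 higher and 7 lower, where 44.4% of all coding genes tested were lower. Genes with shared exons can share reads. Of 40 long genes of common fragile sites, 10 (25% against 1.87%) touched 12 members of the shHDAC5-labelled list, among them CNTN5, CTNNA3, DLG2, DPYD, MACROD2, PDE4D, RBFOX1, TENM4 and THSD7B. A long gene offers more bases to touch, and the part of length was not tested. Of these 7 were tested, 5 higher and 2 lower; MACROD2 went from 1.22 ± 0.341 to 9.32 ± 1.70 CPM, DLG2 from 2.69 ± 0.857 to 7.37 ± 0.429, and PDE4D, which also touched a member of the shControl-labelled list, from 198 ± 1.86 to 52.4 ± 2.98.

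The remaining lists follow, beside the 6.40% and 1.87% of all coding genes touched. In the shControl-labelled list, members touched 27 of 493 zinc finger genes (5.48%), 2 of 85 ribosomal protein genes (RPL28 among them), 2 of 32 pancreas genes (INS and PAX6), 1 of 32 immediate early and stress genes (SQSTM1), 7 of 345 genes of multicopy families, 0 of 392 olfactory receptors and 0 of 69 replication-dependent histone genes. The shHDAC5-labelled list gave 3 zinc finger genes, 0 ribosomal, 1 pancreas gene (HNF4A), 0 immediate early, 3 multicopy, 4 olfactory and 0 histone genes. INS had 0 counts in all 6 libraries. HNF4A, a factor of liver and endocrine pancreas, went from 4.42 ± 0.968 to 1.66 ± 0.259 CPM and was called lower.

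Near misses with the other condition were about as frequent for broad peaks as for each list as a whole. A peak of the other list lay within 1 kb, without overlap, for 369 members (17.0%) of the shControl-labelled list, against 19.8% of its non-overlapping peaks, and for 68 members (7.78%) of the shHDAC5-labelled list, against 7.75%.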

How the data were processed

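GATA1 ChIP-seq peak lists (1 a condition, PANC-1) and RNA counts (6 libraries labelled BxPC-3) were used as the authors deposited them; inputs were not analysed here. Named without a role in the submitters' processing notes are MACS2 2.2.7.1, deepTools 3.5.0, featureCounts 2.0.1, fastp 0.23.2, FastQC 0.11.9 and the build hg38. The deposited peak files give start, end and summit, a score that is the whole part of 10 times −log10 p, the authors' fold enrichment as a ratio, and −log10 p and −log10 q. The lowest −log10 p was 1.30 and 1.31. The pooling of replicates, the aligner and the ChIP depth are not stated in the labels or files used. The deposited RNA file holds whole-number counts per gene, without normalization.

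Gene positions came from RefSeq (GRCh38.p14), matched to peaks by coordinates, and RNA by symbol (61369 of 61541 rows matched). The outermost RefSeq feature of each chromosome stood for its end, and a gene touched a peak when they shared a base. Genes passing edgeR's filter (19181) were scaled by TMM and tested by edgeR 4.0.16's quasi-likelihood test on group alone in R 4.3.3, calling an adjusted p (Benjamini-Hochberg) below 0.05. CPM use TMM-scaled library sizes, and RPKM divides CPM by the gene length column of the file, in kb. The fit was tested on simulated data. Shares carry 95% exact binomial intervals (scipy 1.17.1). Tables and plots used Python 3.11.15, pandas 2.3.3 and matplotlib 3.10.9.

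Samples were grouped by labelled treatment. The members and the 13 gene lists were chosen with earlier results of these data known. Genes are named if touched by the 8 widest or 8 highest-fold members of a list, or by 3 or more members (up to 10 a list), if among the 6 smallest adjusted p per direction with a member at an end, or if among up to 4 per gene list; some of these are counted without values. HDAC5, GATA1 and PLA2G4A are named in any case. MUC2, MUC5B, MUC6, HOXA10, DLX4, BANP and MAPK9, and the marker and fragile-site genes listed beyond 4, were added after values were seen. Alternatives were other widths, windows and q limits, DESeq2 1.42.0, other scalings, no filter, a replicate block and leaving out each library. No sequence of peaks was read, because no genome was used here. Some genes that meet the rule are left out of the text.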

Additional observations from a re-analysis of the deposited data

How the results depend on the processing

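Counts of members follow the width and q limits by construction. For the shControl- and shHDAC5-labelled lists they were 6226 and 5021 at 750 bp, 383 and 29 at 1500 bp, 78 and 2 at 2000 bp, and 731 and 26 with q of at most 0.05; with a fold of at least 3 the shHDAC5-labelled list kept 207. The share near a gene end, 17.3% and 2.17%, was 9.34% and 1.26% within 500 bp, 46.8% and 9.15% within 5 kb, 13.8% and 0% at 1500 bp or wider (the latter of 29 members), 19.02% and 3.85% with q of at most 0.05 (the latter of 26 members and above the 2.97% of all eligible peaks), and 12.4% and 1.28% around RefSeq starts, a setting chosen after seeing the data; counting any base gave 25.5% in the shControl-labelled list. The share in gene bodies there was 78.5% for any base and 80.7% at 1500 bp or wider, and 26.9% in the shHDAC5-labelled list with q of at most 0.05, which rests on 26 members. Settings for chromosome ends were also chosen after seeing the data: 27.1% and 1.95% of members lay within 2 Mb, 56.2% and 14.8% within 10 Mb, and 50.9% and 0% of those with q of at most 0.05 and 55.4% of those of 1500 bp or wider in the shControl-labelled list lay within 5 Mb. In RNA, 5071 of all genes were higher and 3846 lower with at least 2-fold, against 8597 and 7644. Among genes touched in the shControl-labelled list these were 248 and 221, against 451 and 436; 128 and 132 had a member summit within 1 kb of an end, and 171 and 159 a member with q of at most 0.05. In the shHDAC5-labelled list 99 were at least 2-fold higher and 59 lower, against 144 and 107; 6 and 6 had a summit near an end, and 3 and 3 a member with q of at most 0.05. DESeq2 called 488 and 428 touched genes higher and lower in the shControl-labelled list and 169 and 104 in the other, with 10633 and 7703 over all genes. Scaling by total counts gave 512 and 382, 159 and 95, and 9727 and 6596. The balance of higher and lower calls among touched genes therefore varied with the setting, from 128 against 132 near an end to 512 against 382 in the shControl-labelled list, and from 6 against 6 near an end to 169 against 104 in the other. Leaving out each library in turn gave 443 to 458 higher and 433 to 440 lower in the first, and 142 to 149 and 106 to 109 in the second. With the replicate number as a block the counts were 449 and 433, and 144 and 107; deviations of same-numbered libraries correlated at −0.0126, 0.00258 and 0.00593, so the numbers do not pair the samples. Of 120 values from alternative settings, 77 were graded the same as the main value and 43 as moved. The grade the same does not mean a close value. It was given to 11313 of all genes called higher without the filter, against 8597. A share near a gene end of 19.02%, against 17.3%, was graded as moved. The low q support of the shHDAC5-labelled list, 26 of 874 members, limits what its peaks can show.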

Other observations

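Several microRNA hairpins lay inside broad peaks of the shControl-labelled list and were picked out after their positions were seen. The hairpin of MIR200B, whose microRNA represses the ZEB factors and marks epithelial cells, lay in a peak of 1661 bp with a fold of 3.79 (chr1:1166921-1168581). MIR33B, hosted by the sterol regulator SREBF1, lay in a peak of 1242 bp with a fold of 2.57 (chr17:17813328-17814569), and MIR24-1 in a peak of 1060 bp with a fold of 2.95 (chr9:95085510-95086569). In the shHDAC5-labelled list the hairpin of MIR4435-2 lay in a peak of 1143 bp with a fold of 3.42. MicroRNA levels were not measured here.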
